A study of Homo sapiens with 4 samples.

Results

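ATP-binding cassette (ABC) proteins share a domain that binds and splits ATP, and most of them use that energy to move a substrate across a membrane. In the gut the family is known for exporting drugs and toxins back into the lumen, for loading cholesterol and phospholipid onto lipoproteins, and for carrying haem, fatty acids, peptides and vitamin B12 across the membranes of mitochondria, peroxisomes and lysosomes. Subfamilies E and F have no membrane domain and act on ribosomes. The genes described here are all rows of the gene table named ABC, a subfamily letter from A to G and a number. There were 47 such rows among 58740 genes, with 46 distinct names because ABCF2 has 2 overlapping rows. They were 12 rows of subfamily A, 9 of B, 12 of C, 4 of D, 1 of E, 4 of F and 5 of G. ABC genes named otherwise (TAP1, TAP2 and CFTR) were not counted among them.

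RNA was sequenced from 4 established human colon lines, all labelled as wild type epithelial cells, with 1 library per line. HCT116 and DLD-1 are colorectal carcinoma lines, SW620 was derived from a colorectal carcinoma that had spread to a lymph node, and HCEC-1CT is a non-cancerous colon line immortalised with CDK4 and TERT. All 4 grew for 7 days as spheroids in 24-well plates to which cells attach poorly, with 10% fetal bovine serum. Compact spheroids were picked under a microscope and the RNA of 2 plates was pooled, so any spread between wells is averaged within the library. With no second library of any line, no difference below has a replicate check or a p-value, and the cancer lines do not stand in for replicates. All 3 ratios share the HCEC-1CT library.

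Levels are FPKM, fragments scaled to transcript length and library size, so genes of different length can be compared. The values summed over all genes to 566629 in HCT116, 438118 in DLD-1, 498763 in SW620 and 412191 in HCEC-1CT. Ratios between lines therefore depend in part on the scaling, and some of the values that move with it are given. The libraries held about 25300000 fragments in HCT116, 23300000 in DLD-1, 28700000 in SW620 and 29500000 in HCEC-1CT, estimated from the spacing of low values. At those depths 1 FPKM of a transcript of 2 kb stood for 46.6 to 59.0 fragments. The labelled cell type was checked against marker genes. All 8 epithelial markers reached 1 FPKM in each cancer line, against 2 of 8 in HCEC-1CT, and their summed level was 1601 to 6721 FPKM in the cancer lines and 7.81 FPKM in HCEC-1CT. EPCAM, CDH1, KRT19 and KRT20 were listed at 0 in HCEC-1CT, so its library lacks defining markers of its labelled type. Of 10 fibroblast markers, 1 in HCT116, 1 in DLD-1, 2 in SW620 and 10 in HCEC-1CT reached 1 FPKM, with sums of 12.7, 1.46, 28.0 and 1147 FPKM. The 5 endothelial markers summed to at most 15.97 FPKM and the 5 leukocyte markers to at most 16.98 FPKM in any line. Every comparison below therefore also compares libraries with different marker genes, and the part of that difference in any ABC gene was not tested. In RNA from whole spheroids, fewer cells of a type and less RNA per cell cannot be told apart.

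The lines differed in which ABC genes made up the family's RNA as well as in its sum. Over the 47 rows the sum came to 357 FPKM in HCT116, 409 in DLD-1, 305 in SW620 and 406 in HCEC-1CT. The number of members at 1 FPKM or more was 25, 25, 24 and 27. In all, 31 members reached 1 FPKM in at least 1 line, and 20 did so in all 4. The other 16 stayed under 1 FPKM everywhere, and 3 of them (ABCC13, ABCG5 and ABCG8) were listed at 0 in every library. Subfamily C, which holds the multidrug resistance proteins, made up 18.5% of the summed level in HCT116, 34.2% in DLD-1, 22.4% in SW620 and 38.9% in HCEC-1CT. Subfamily B, with P-glycoprotein and the mitochondrial transporters, made up 13.6%, 9.67%, 14.7% and 7.01%, so its share was above that of HCEC-1CT in each cancer line.

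**Figure D1:**
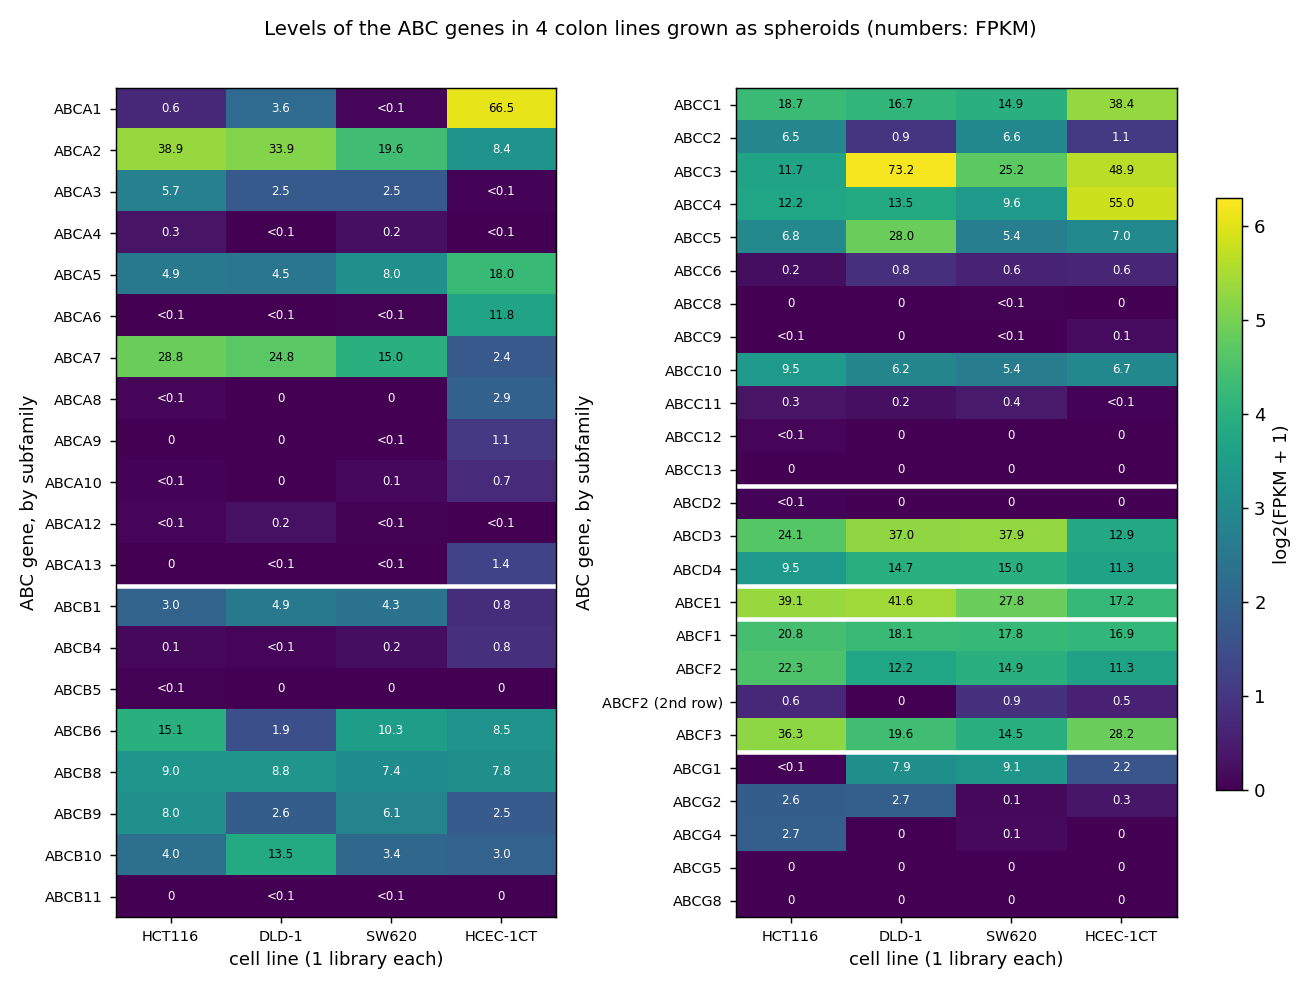
Level of 45 of the 47 ABC rows in the 4 lines, 1 library each. Rows are genes ordered by subfamily (white lines part the subfamilies), columns are lines, colour is log2(FPKM + 1) and the printed numbers are FPKM. ABCA1 is the brightest cell of the HCEC-1CT column at 66.5 FPKM and ABCC3 that of the DLD-1 column at 73.2 FPKM.

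Each cancer line was then set against HCEC-1CT as a log2 ratio of FPKM + 1, a scale on which low genes appear closer together than they are. The limit for a call was 4-fold with at least 1 FPKM in one of both libraries. In HCT116, 3 of 31 members were called higher and 3 lower, where 10.3% and 5.73% of all genes were. In DLD-1, 1 of 30 members was called higher and 2 lower, against 10.4% and 6.3% of all genes. In SW620, 1 of 29 was called higher and 3 lower, against 10.3% and 6.36%. These are counts of 1 to 3 genes beside shares of the same order, so they do not set the family apart. Every one of these calls fell on a subfamily A gene or on ABCC4. ABCA7 was higher, and ABCA1 and ABCA6 were lower, in all 3 cancer lines, which is 1 and 2 of 31 members against 2.68% and 2.99% of all genes. Under median-ratio scaling, which lowers the ratios of well expressed genes by 0.38, 0.41 and 0.29 on the log2 scale (HCT116, DLD-1 and SW620) and shifts low genes less, the calls were 2 higher and 5 lower, 1 and 4, and 0 and 3. ABCA7 then missed the limit in SW620 (1.97), and ABCC4 joined ABCA1 and ABCA6 as lower in all 3 lines.

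At 2-fold more of the family differed. HCT116 had 9 members higher and 9 lower, against 30.8% and 15% of all genes. DLD-1 had 10 higher and 9 lower, against 29.3% and 14.6%, and SW620 had 9 higher and 8 lower, against 28.7% and 16.4%. The shares of members called higher lay near the background, while the shares called lower, 9 of 31, 9 of 30 and 8 of 29, were above it. ABCA2, ABCA3, ABCA7 and ABCB1 were 2-fold higher in all 3 cancer lines, 4 of 31 members against 9.35% of all genes. ABCA2 in SW620 and ABCB1 in HCT116 came under 2-fold with median-ratio scaling, at log2 ratios of 0.86 and 0.90. With a pseudocount of 5 ABCB1 was not 2-fold higher in any cancer line. ABCA1, ABCA5, ABCA6, ABCA8, ABCA9, ABCA13 and ABCC4 were lower in all 3, 7 of 31 against 7.11%. The median log2 ratio of members was 0.34, 0.11 and 0.15 for HCT116, DLD-1 and SW620, beside 0.39, 0.43 and 0.29 over all genes. Another 7 members stayed within 2-fold of HCEC-1CT in each cancer line.

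**Figure D2:**
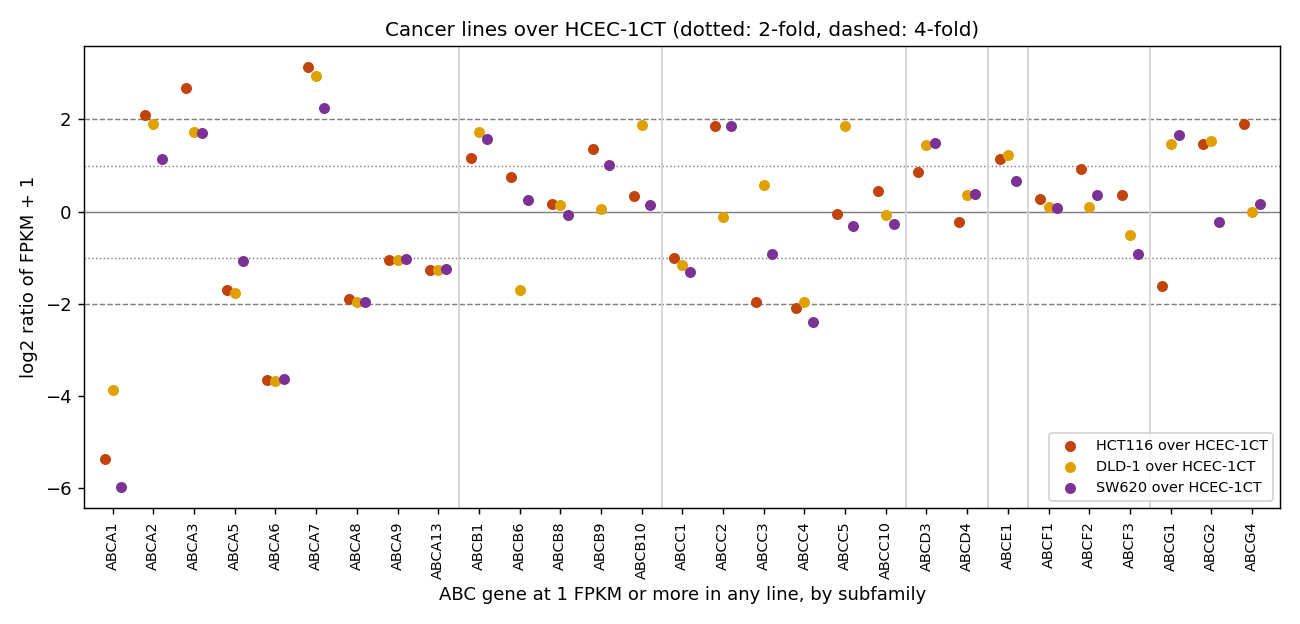
Log2 ratio of FPKM + 1 of HCT116, DLD-1 and SW620 over HCEC-1CT for 29 of the 31 members at 1 FPKM or more in any line. Each point is 1 line, and dotted and dashed lines mark 2-fold and 4-fold. The points beyond either dashed line are subfamily A genes and ABCC4, and ABCG1 has points on both sides of 0, at -1.61, 1.48 and 1.67.

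Subfamily A proteins are large transporters of sterols and phospholipids, and the genes furthest from HCEC-1CT in both directions were among them. ABCA1 exports cellular cholesterol and phospholipid to apolipoprotein acceptors. It was at 0.628 FPKM in HCT116, 3.61 FPKM in DLD-1 and 0.0690 FPKM in SW620, against 66.5 FPKM in HCEC-1CT, where no other member was higher. All 3 cancer lines lay far below, with log2 ratios of -5.37, -3.87 and -5.98. ABCA6, a little studied member, was at 0.0149, 0.00332 and 0.0229 FPKM in HCT116, DLD-1 and SW620 and at 11.8 FPKM in HCEC-1CT. Its log2 ratios were -3.65, -3.67 and -3.64, and its values in the cancer lines stood for 2, 0 and 3 fragments. With a pseudocount of 5 these ratios were -1.74, -1.75 and -1.74, which is inside 4-fold. ABCA7, a phospholipid transporter studied for its link to Alzheimer's disease, ran the other way. It was at 28.8 FPKM in HCT116, 24.8 FPKM in DLD-1 and 15.0 FPKM in SW620, against 2.38 FPKM in HCEC-1CT, with log2 ratios of 3.14, 2.93 and 2.25.

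The 150 bases upstream of these 3 genes are shown because they were the members called in the same direction in all 3 cancer lines. They are from RefSeq (GRCh38.p14), 5′ to 3′ on the strand of the gene, and end at the base before the more upstream of the RefSeq start and the start of the transcript named (ABCA1-202, ABCA6-201 or ABCA7-201). They cover chr9:104928238-104928387 on the minus strand for ABCA1, chr17:69141896-69142045 on the minus strand for ABCA6 and chr19:1039953-1040102 on the plus strand for ABCA7. Capitals mark the letters of 4 promoter motifs searched on both strands.
ABCA1: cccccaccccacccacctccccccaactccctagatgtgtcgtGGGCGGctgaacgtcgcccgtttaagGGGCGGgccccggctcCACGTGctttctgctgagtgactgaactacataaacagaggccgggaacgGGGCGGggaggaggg
ABCA6: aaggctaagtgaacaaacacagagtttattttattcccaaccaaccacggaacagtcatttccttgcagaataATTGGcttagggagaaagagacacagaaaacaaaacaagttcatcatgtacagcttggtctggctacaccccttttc
ABCA7: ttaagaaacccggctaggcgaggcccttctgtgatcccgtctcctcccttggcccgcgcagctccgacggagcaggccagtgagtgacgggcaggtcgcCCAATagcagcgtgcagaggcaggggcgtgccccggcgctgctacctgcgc

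The window of ABCA1 held 3 matches to the GC box letters GGGCGG, which, with the reverse CCGCCC counted too, 36.7% of 34943 human promoter windows of this length hold. It also held 1 E-box CACGTG, whose letters read the same on both strands and which 4.55% of windows hold. ABCA6 and ABCA7 each held 1 match to CCAAT or its reverse ATTGG, found in 23.5% of windows. None of the 3 windows, as placed, held TATAAA or TTTATA, found in 6.72%. The windows differed in base composition: ABCA6 had 1 CpG and 40.7% G and C, while ABCA1 had 11 CpG and ABCA7 had 14, against a median of 7 over all windows. No match overlapped another. The shares and the median are from windows that end just before the RefSeq start. The window of ABCA1 ended 82 bases further upstream than that, and the window of ABCA7 4 bases further upstream. For ABCA1 the shares are thus of an unlike position, and the bases nearest its RefSeq start were not searched. A match of letters is not a site in use. The ABCA7 window was placed by ABCA7-201, at 0.00969 FPKM in HCT116, 9.30 FPKM in DLD-1, 6.47 FPKM in SW620 and 0.0170 FPKM in HCEC-1CT. ABCA7-209, a transcript with a retained intron, starts at the same base, and other transcripts start close by. It was at 6.35 FPKM in HCT116, 3.38 FPKM in DLD-1, 2.34 FPKM in SW620 and 0.786 FPKM in HCEC-1CT. In HCT116 the most abundant ABCA7 transcript was ABCA7-203, which starts further downstream.

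Other subfamily A members followed one or the other direction, and of the 9 members of the subfamily at 1 FPKM or more, 3 were 2-fold higher and 6 lower in each cancer line. ABCA2, an endosomal and lysosomal transporter linked to sterol handling, was at 38.9 FPKM in HCT116, 33.9 FPKM in DLD-1 and 19.6 FPKM in SW620, against 8.37 FPKM in HCEC-1CT. Its log2 ratios were 2.09, 1.90 and 1.14, but most of this RNA in the cancer lines was of transcripts that GENCODE 29 does not type as protein coding. The protein-coding transcripts of ABCA2 summed to 6.05, 1.13 and 0.985 FPKM in the cancer lines and 4.87 FPKM in HCEC-1CT, with log2 ratios of 0.26, -1.46 and -1.56. A transcript with a retained intron, ABCA2-208, made up 51.9%, 18.3% and 51.9% of ABCA2 in HCT116, DLD-1 and SW620, and was listed at 0 in HCEC-1CT. ABCA3, which loads lung surfactant lipids into lamellar bodies, was at 5.70, 2.47 and 2.45 FPKM in HCT116, DLD-1 and SW620 and at 0.0512 FPKM in HCEC-1CT. Its log2 ratios were 2.67, 1.72 and 1.72, and the protein-coding transcript ABCA3-201 made up 81.5%, 71.9% and 82.6% of it in the cancer lines. ABCA13 was at or under 0.0104 FPKM in each cancer line and at 1.40 FPKM in HCEC-1CT, and ABCA4 and ABCA12 stayed at or under 0.258 FPKM in all 4.

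ABCA8, ABCA9, ABCA6, ABCA10 and ABCA5 lie next to each other in that order on chromosome 17, from 68867292 to 69327244 (hg38), and each of the 5 was higher in HCEC-1CT than in any cancer line. ABCA5, a lysosomal member, was at 4.88, 4.55 and 7.99 FPKM in HCT116, DLD-1 and SW620, against 18.0 FPKM in HCEC-1CT, with log2 ratios of -1.69, -1.78 and -1.08. ABCA8, a lipid transporter, was at 0.0575 FPKM in HCT116 and listed at 0 in DLD-1 and SW620, against 2.91 FPKM in HCEC-1CT. ABCA9 was listed at 0 in HCT116 and DLD-1 and was at 0.0158 FPKM in SW620 and 1.08 FPKM in HCEC-1CT. ABCA10, at most 0.101 FPKM in a cancer line and 0.718 FPKM in HCEC-1CT, was under the minimum for a call. It overlaps ABCA5 by part of its length, and fragments of the overlap could come from either gene.

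Of 11 protein-coding genes within 1 Mb on either side, 10 reached 1 FPKM in at least 1 line. Among them 5 (ARSG, SLC16A6, WIPI1, FAM20A and KCNJ2) were 2-fold lower in all 3 cancer lines and 1, KPNA2, was 2-fold higher, where 7.11% and 9.35% of all genes were. PRKAR1A, which lies among them, was at 111 FPKM in HCT116, 82.9 in DLD-1, 92.1 in SW620 and 103 in HCEC-1CT. SLC16A6, a monocarboxylate transporter of another family, was at 1.40, 0.0336 and 19.3 FPKM in the cancer lines and at 97.7 FPKM in HCEC-1CT.

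**Figure D3:**
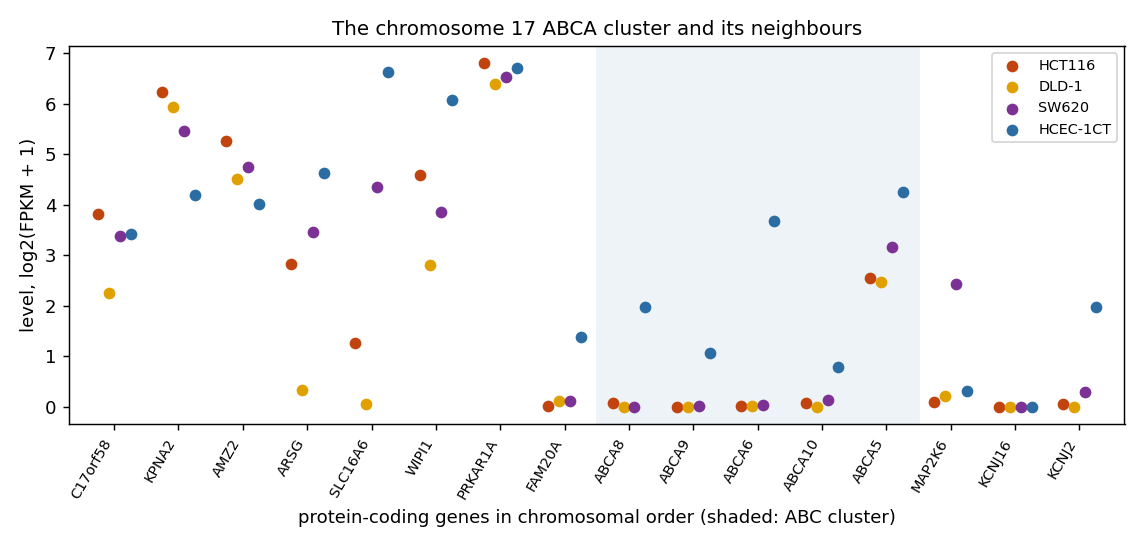
Level, as log2(FPKM + 1), of the 5 clustered ABCA genes (shaded) and the 11 protein-coding genes within 1 Mb, in chromosomal order. Each point is 1 library. Within the shading HCEC-1CT lies above every cancer line for each gene, and outside it HCEC-1CT is also highest for ARSG, SLC16A6, WIPI1, FAM20A and KCNJ2.

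Subfamily B holds P-glycoprotein and several transporters that work as dimers in mitochondria and lysosomes. ABCB1 encodes P-glycoprotein, the broad exporter of drugs at the apical membrane of gut cells. It was at 2.99 FPKM in HCT116, 4.86 FPKM in DLD-1 and 4.27 FPKM in SW620, against 0.768 FPKM in HCEC-1CT. All 3 cancer lines lay above HCEC-1CT, with log2 ratios of 1.17, 1.73 and 1.58. On this scale they are over 2-fold and under 4-fold, but with a pseudocount of 0.1 they were 1.83, 2.51 and 2.33, so that DLD-1 and SW620 passed 4-fold. With a pseudocount of 5 none of the 3 lines passed 2-fold. These levels stood for 309, 465, 562 and 67 fragments. Most of them were placed on the protein-coding transcript ABCB1-211, at 2.49, 4.09 and 4.07 FPKM in the cancer lines and 0.432 FPKM in HCEC-1CT. The span of ABCB1 overlaps RUNDC3B, which was at 4.11 FPKM in HCT116 and at most 0.270 FPKM in the other 3 lines. ABCB1-211 itself covers 87503633 to 87601073 and does not reach RUNDC3B, which begins at 87627548. The neighbouring ABCB4, which moves phosphatidylcholine into bile, pointed the other way at 0.106, 0.0752 and 0.185 FPKM in the cancer lines against 0.813 FPKM in HCEC-1CT, all under the minimum for a call.

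The mitochondrial members ABCB6, ABCB8 and ABCB10 passed 1 FPKM in each line, and none of these was called at 4-fold. DLD-1 was the line that stood apart in both directions. ABCB6, which has been tied to porphyrin transport, was at 15.1 FPKM in HCT116, 1.93 in DLD-1, 10.3 in SW620 and 8.49 in HCEC-1CT. Its protein-coding transcripts summed to 5.39, 0.00431, 4.41 and 2.19 FPKM in the same order. ABCB10, needed for haem synthesis in red cell precursors, was at 4.02, 13.5, 3.39 and 2.97 FPKM. So ABCB6 was lowest and ABCB10 highest in DLD-1, each by over 2-fold from every other line. ABCB8 lay between 7.37 and 8.97 FPKM in all 4 lines. ABCB9, a lysosomal peptide transporter, was at 8.02, 2.62 and 6.08 FPKM in HCT116, DLD-1 and SW620 and at 2.49 FPKM in HCEC-1CT, and it overlaps OGFOD2 and ARL6IP4. ABCB5 (0.0306 FPKM in HCT116, listed at 0 elsewhere) and the bile salt exporter ABCB11 (at most 0.00897 FPKM) were near 0.

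Subfamily C includes the multidrug resistance proteins, which export conjugated drugs, bile salts and signalling molecules. ABCC1 (MRP1), an exporter of glutathione conjugates, was at 18.7 FPKM in HCT116, 16.7 FPKM in DLD-1 and 14.9 FPKM in SW620, against 38.4 FPKM in HCEC-1CT. The 3 cancer lines lay close together and below it, with log2 ratios of -0.998, -1.15 and -1.31, and 1 transcript, ABCC1-202, made up 79.9% to 91.2% of the gene in all 4 lines. ABCC2 (MRP2), an apical exporter of conjugates, split the cancer lines. It was at 6.52 FPKM in HCT116, 0.913 FPKM in DLD-1 and 6.61 FPKM in SW620, against 1.09 FPKM in HCEC-1CT, with log2 ratios of 1.85, -0.13 and 1.87. Over protein-coding transcripts alone the HCT116 and SW620 ratios were 2.45 and 2.28, past 4-fold.

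ABCC3 (MRP3), the basolateral exporter of conjugates and bile salts, was at 11.7 FPKM in HCT116, 73.2 in DLD-1, 25.2 in SW620 and 48.9 in HCEC-1CT. HCT116 was over 2-fold below every other line and DLD-1 had the highest ABC level of the study, while the log2 ratios over HCEC-1CT were -1.97, 0.57 and -0.93. The protein-coding share of ABCC3 was 9.67%, 23.8%, 45.6% and 40.7%, and over coding transcripts alone the log2 ratios were -3.29, -0.18 and -0.74, so the sign for DLD-1 turned. ABCC5 (MRP5), an exporter of cyclic nucleotides, was at 6.75 FPKM in HCT116, 28.0 in DLD-1, 5.43 in SW620 and 7.03 in HCEC-1CT, so DLD-1 lay over 2-fold above the other 3. ABCC10 (MRP7) lay between 5.37 and 9.50 FPKM. ABCC11 (at most 0.368 FPKM) and ABCC12 (0.0652 FPKM in HCT116, listed at 0 elsewhere) were near 0.

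ABCC4 (MRP4), an exporter of cyclic nucleotides, prostaglandins and nucleoside drugs, differed in direction between its gene level and its coding transcripts. The gene was at 12.2 FPKM in HCT116, 13.5 FPKM in DLD-1 and 9.58 FPKM in SW620, against 55.0 FPKM in HCEC-1CT. The 3 cancer lines lay close together, with log2 ratios of -2.09, -1.96 and -2.41, so that HCT116 and SW620 passed 4-fold and DLD-1 lay just inside it. Transcripts typed as protein coding, however, summed to 11.7, 11.6 and 8.99 FPKM in the cancer lines and to 3.46 FPKM in HCEC-1CT, and over these alone the log2 ratios were 1.51, 1.50 and 1.16. Transcripts typed as targets of nonsense-mediated decay, the pathway that degrades RNA with a premature stop codon, summed to 0.0721, 0.136 and 0.00677 FPKM in HCT116, DLD-1 and SW620 and to 47.1 FPKM in HCEC-1CT. The protein-coding share of ABCC4 was 96.2%, 86.4% and 93.8% in the cancer lines and 6.28% in HCEC-1CT.

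A pair of transcripts carried nearly all of this. ABCC4-212 was listed at 0 in HCT116, DLD-1 and SW620 and was at 24.9 FPKM in HCEC-1CT. ABCC4-209 was at 0.0355, 0.0583 and 0.00677 FPKM in the cancer lines and at 20.1 FPKM in HCEC-1CT. Both differ from the full-length ABCC4-201, which was at 8.39, 10.3 and 6.35 FPKM in the cancer lines and 1.89 FPKM in HCEC-1CT, by internal exons that bring in an early stop. ABCC4-201 encodes 1325 residues from 31 exons, of which ABCC4-212 and ABCC4-209 each share 29 exactly, while the first and last exons differ in length. In ABCC4-212 an added exon of 166 bases at chr13:95266099-95266264 ends the reading frame after 39 residues. In ABCC4-209 an added exon of 28 bases at chr13:95161765-95161792 is no multiple of a codon, and the frame ends after 800 residues, in a later exon. A second added exon of 286 bases in ABCC4-209 lies after the stop.

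The added coding bases are shown because they alone distinguish the main HCEC-1CT transcripts within the reading frame. They are from the GENCODE 29 transcripts (hg38, minus strand), 5′ to 3′, with the premature stop codon in capitals. The first runs from the start of its exon to the stop, 46 of 166 bases, and the second is the whole exon of 28 bases, which holds no stop in its frame.
ABCC4-212: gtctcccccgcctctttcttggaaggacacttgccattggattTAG
ABCC4-209: ctacttgggcattttctacaaggaaaag

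Transcript levels of this kind are estimates by a program that the sources used here do not give, and the 3 transcripts share nearly all of their sequence. Whether the fragments over the added exons bear out the split was not tested, because no coverage is used here.

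**Figure D4:**
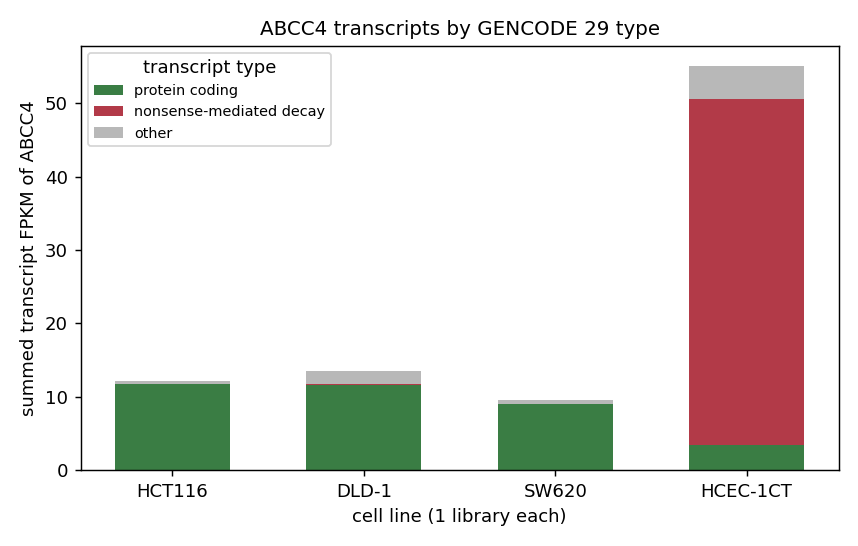
Summed FPKM of ABCC4 transcripts in each line, 1 library each, stacked by GENCODE 29 transcript type. The protein-coding part is 8.99 to 11.7 FPKM in the cancer lines and 3.46 FPKM in HCEC-1CT, whose whole bar is the tallest at 55.0 FPKM.

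The remaining members of subfamily C were low. ABCC6, mutated in the calcification disorder pseudoxanthoma elasticum, was at 0.184, 0.806 and 0.553 FPKM in the cancer lines and 0.592 FPKM in HCEC-1CT, and its near-identical pseudogenes make even these values uncertain. The sulphonylurea receptors ABCC8 and ABCC9, which are subunits of potassium channels rather than transporters, stayed at or under 0.143 FPKM. ABCC13, a pseudogene, was listed at 0 throughout.

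Subfamily D members form dimers in the membranes of peroxisomes, where they import fatty acyl chains, and lysosomes. ABCD3, which imports branched fatty acids and bile acid precursors into peroxisomes, was at 24.1 FPKM in HCT116, 37.0 FPKM in DLD-1 and 37.9 FPKM in SW620, against 12.9 FPKM in HCEC-1CT. It was above HCEC-1CT in each cancer line, with log2 ratios of 0.85, 1.45 and 1.49. ABCD4, which takes part in releasing vitamin B12 from lysosomes, lay between 9.52 and 15.0 FPKM and stayed within 2-fold of HCEC-1CT. ABCD2 was at 0.0444 FPKM in HCT116 and listed at 0 in the other 3 lines.

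The proteins without membrane domains were among the more abundant members. ABCE1, which splits ribosomes after termination, was at 39.1 FPKM in HCT116, 41.6 FPKM in DLD-1 and 27.8 FPKM in SW620, against 17.2 FPKM in HCEC-1CT. Its log2 ratios were 1.14, 1.23 and 0.66, and the gene overlaps ANAPC10 and OTUD4. ABCF1, which binds ribosomes and initiation factor eIF2, lay between 16.9 and 20.8 FPKM and within 2-fold of HCEC-1CT in each line. ABCF2 was at 22.3, 12.2 and 14.9 FPKM in the cancer lines and 11.3 FPKM in HCEC-1CT, and its second row, which overlaps the first, stayed at or under 0.856 FPKM. ABCF3 was at 36.3, 19.6 and 14.5 FPKM in HCT116, DLD-1 and SW620 and at 28.2 FPKM in HCEC-1CT, with 18.9% to 34.0% of it protein coding. All 3 cancer lines lay within 2-fold of HCEC-1CT, and the sign for HCT116 turned with median-ratio scaling, to a log2 ratio of -0.02.

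Subfamily G genes encode transporters that pair up to move sterols or drugs, and their levels split the cancer lines. ABCG1, which passes cholesterol to high-density lipoprotein, was at 0.0447 FPKM in HCT116, 7.86 FPKM in DLD-1 and 9.15 FPKM in SW620, against 2.18 FPKM in HCEC-1CT. Its log2 ratios were -1.61, 1.48 and 1.67, so HCT116 lay below HCEC-1CT and the other cancer lines above it. These levels stood for 3, 525, 675 and 191 fragments, and the main transcripts ABCG1-203 and ABCG1-205 were listed at 0 in HCT116. ABCG2, the breast cancer resistance protein and an apical drug exporter, was at 2.61 FPKM in HCT116, 2.74 FPKM in DLD-1 and 0.101 FPKM in SW620, against 0.296 FPKM in HCEC-1CT. HCT116 and DLD-1 were above HCEC-1CT (log2 ratios of 1.48 and 1.53) and SW620 was not (-0.24), on 196, 256, 13 and 39 fragments. ABCG4, known as a sterol transporter of brain, was at 2.73 FPKM in HCT116 and 0.123 in SW620 and was listed at 0 in DLD-1 and HCEC-1CT. ABCG5 and ABCG8, which form the sterol exporter of enterocytes and liver, were listed at 0 in all 4 libraries.

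The 12 genes counted here as drug exporters were ABCB1, ABCB5, ABCC1 to ABCC6, ABCC10 to ABCC12 and ABCG2. Together they summed to 71.6 FPKM in HCT116, 147 in DLD-1, 72.5 in SW620 and 159 in HCEC-1CT. Over protein-coding transcripts alone the sums were 50.5, 74.1 and 51.6 FPKM in the cancer lines and 66.5 FPKM in HCEC-1CT, so that DLD-1 and not HCEC-1CT had the highest. Of these, 8 reached 1 FPKM in at least 1 line. At 2-fold over HCEC-1CT, 3 of 8 were higher and 2 lower in HCT116, where 30.8% and 15% of all genes were. DLD-1 had 3 of 8 higher and 2 lower, against 29.3% and 14.6%, and SW620 had 2 of 7 and 2, against 28.7% and 16.4%. Under each of the other scalings 3 were lower in HCT116 and 3 in SW620, as ABCC1, ABCC3 and ABCC4 then all passed 2-fold. These counts are too small to set the exporters apart from other genes. At 4-fold ABCC4 alone was called, as lower in HCT116 and SW620. That rests on the pseudocount, on the scaling and on counting all transcripts. With a pseudocount of 0.1, ABCC2 and ABCG2 passed 4-fold as higher in HCT116, ABCB1 and ABCG2 in DLD-1, and ABCB1 and ABCC2 in SW620. At that pseudocount, and under each of the other scalings, ABCC4 was called lower in all 3 lines and ABCC3 in HCT116. With a pseudocount of 5, ABCC4 was called in SW620 alone. Over protein-coding transcripts ABCC2 passed it in HCT116 and SW620, ABCC3 was called lower in HCT116, and ABCC4 was not called. By gene level P-glycoprotein was 2-fold higher in all 3 lines, though HCT116 came to 0.90 with median-ratio scaling, and by coding transcripts both it and ABCC4 were. ABCC2 was 2-fold higher in HCT116 and SW620, ABCG2 in HCT116 and DLD-1, and ABCC5 in DLD-1. With a pseudocount of 5, 0 exporters were 2-fold higher in HCT116 and 0 in SW620, and ABCC5 alone was in DLD-1. ABCC3, ABCC4 and ABCC1 made up most of the summed gene level of HCEC-1CT, where ABCC4 gave 55.0 FPKM over all transcripts and 3.46 FPKM over coding ones, and ABCC3 and ABCC5 made up most of that of DLD-1.

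**Figure D5:**
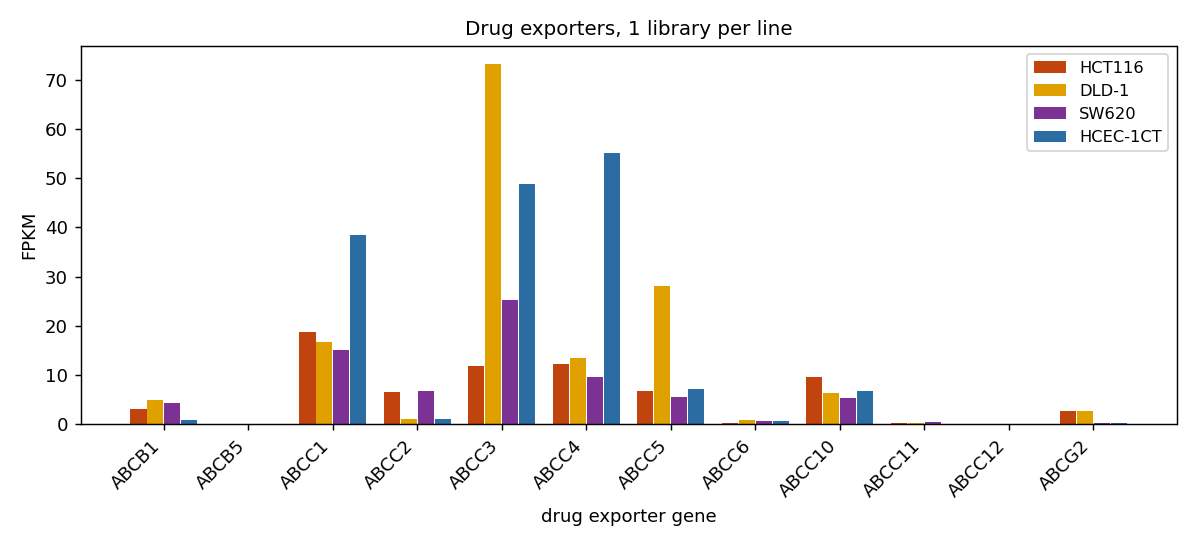
FPKM of the 12 drug exporter genes in the 4 lines, 1 library per bar. ABCC3 has the tallest bar, in DLD-1 at 73.2 FPKM, ABCC4 and ABCC1 are tallest in HCEC-1CT at 55.0 and 38.4 FPKM, and the ABCB1 and ABCG2 bars stay at or under 4.86 FPKM.

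Single lines were set apart by few members. HCT116 lay 2-fold above each of the other 3 lines for ABCG4, 1 of 31 members where 5.76% of all genes did, and 2-fold below them for ABCC3 and ABCG1, 2 of 31 against 1.29%. DLD-1 lay above the others for ABCB10 and ABCC5, 2 of 31 against 7.74%, and below them for ABCB6, 1 of 31 against 2.16%. SW620 lay apart for 0 members in either direction, against 5.12% of all genes above and 1.79% below. At 4-fold 0 of 31 members set HCT116 above or below each of the other lines, against 1.27% and 0.193% of all genes. The same count of 0 held for DLD-1, against 1.56% and 0.553%, and for SW620, against 1.57% and 0.376%. Across the 47 rows, log2(FPKM + 1) correlated between cancer lines with Pearson's r of 0.87 (HCT116 and DLD-1), 0.92 (HCT116 and SW620) and 0.91 (DLD-1 and SW620). With HCEC-1CT the values were 0.69, 0.76 and 0.71 for HCT116, DLD-1 and SW620. Over the 18637 genes at 1 FPKM or more in any line, r was 0.79, 0.83 and 0.80 between cancer lines. With HCEC-1CT it was 0.69, 0.66 and 0.68, so the lower values with HCEC-1CT are found across those genes too. The 47 rows had no such filter and hold 16 members under 1 FPKM everywhere, so r over them and over all genes covers unlike sets. All these r values describe points that share 4 libraries and are not independent.

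The most abundant transcript was compared for members at 5 FPKM or more in both libraries of a comparison. It differed from that of HCEC-1CT for 8 of 16 members in HCT116, 6 of 15 in DLD-1 and 6 of 17 in SW620. Among all genes with 2 or more transcripts, under the same rule, it differed for 29%, 27.5% and 29.2%. ABCA2, ABCB8, ABCC4 and ABCC5 differed in all 3. For ABCC5, the exporter of cyclic nucleotides, the protein-coding ABCC5-202 made up 84.0%, 31.8% and 49.5% of the gene in HCT116, DLD-1 and SW620 and 13.5% in HCEC-1CT. ABCC5-201, a coding transcript of nearly the same span, was listed at 0 in HCT116 and SW620. It made up 12.3% in DLD-1 and 14.5% in HCEC-1CT. Where only protein-coding transcripts were compared, 0 of 7 members differed in each cancer line, against 23.1%, 22.1% and 23.8% of all genes, so the counts rest on transcripts of other types or on members whose coding part is under 5 FPKM.

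Genes that work with the family were taken from lists by textbook role. Of the ABC proteins named otherwise, the peptide transporter subunits TAP1 and TAP2 stayed under 4-fold, TAP1 at 16.1, 9.60, 21.9 and 20.4 FPKM and TAP2 at 6.33, 4.33, 9.86 and 11.3 FPKM in HCT116, DLD-1, SW620 and HCEC-1CT. CFTR, the chloride channel of cystic fibrosis, was at 0.0128 FPKM in HCT116, 34.0 in DLD-1 and listed at 0 in SW620, against 1.55 FPKM in HCEC-1CT. Of 17 regulators of ABC genes, 14 reached 1 FPKM. At 4-fold 2 of 13 were higher and 0 lower in HCT116, against 10.3% and 5.73% of all genes. The counts were 3 of 13 and 0 in DLD-1, against 10.4% and 6.3%, and 4 of 14 and 1 in SW620, against 10.3% and 6.36%. PPARG, a nuclear receptor for fatty acids, was at 25.6, 42.0 and 51.8 FPKM in the cancer lines and 5.20 FPKM in HCEC-1CT, and the gut factors CDX2 and HNF4A were listed at 0 in HCEC-1CT. The liver X receptors, which drive ABCA1 and ABCG1, are encoded by NR1H3 and NR1H2. NR1H3 was at 5.30, 5.57 and 15.0 FPKM in the cancer lines and 4.24 FPKM in HCEC-1CT. NR1H2 was at 15.1, 19.9 and 20.2 FPKM in the cancer lines, below the 33.1 FPKM of HCEC-1CT.

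Of 14 uptake carriers for drugs and nucleosides, which work opposite to the exporters, 11 reached 1 FPKM. At 4-fold, 3 of 9 were higher and 1 lower in HCT116, 4 of 9 and 1 in DLD-1, and 3 of 10 and 0 in SW620, beside the same shares of all genes (10.3% to 10.4% higher, 5.73% to 6.36% lower). SLCO4A1, an organic anion carrier, was at 34.9, 62.0 and 101 FPKM in the cancer lines and 3.67 FPKM in HCEC-1CT. SLC29A2, a nucleoside carrier, was at 8.33, 12.3 and 6.77 FPKM in the cancer lines and listed at 0 in HCEC-1CT. These were the 2 carriers called higher in all 3 cancer lines, and carriers called in fewer lines, in either direction, are not named here. Of 8 partner proteins, 6 could be called in each comparison. Of these, 0 were 4-fold higher and 1 lower in HCT116, 0 and 1 in DLD-1, and 1 and 0 in SW620, beside those shares again. APOE, which accepts cholesterol from ABCA1, was at 5.66, 0.0680 and 32.3 FPKM in HCT116, DLD-1 and SW620 and at 5.03 FPKM in HCEC-1CT. Tapasin (TAPBP), which ties TAP to class I molecules, was at 19.1, 63.7, 36.7 and 92.7 FPKM, and was 4-fold lower in HCT116 alone of the cancer lines.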

How the data were processed

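Per the labels' protocols, total RNA from spheroids of 4 colon lines was made into libraries by standard Illumina steps. FastQC, HISAT2 and the build hg38 are named in the submitters' processing notes. The values are FPKM of genes and transcripts as deposited by the authors, and neither the program behind them nor the strandedness is given in the sources used here. Both tables hold 1 further column of values, which fits no labelled sample and was left out.

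Members, gene lists and the rules for calls and for naming genes were chosen with earlier results of these data known. Python 3.11.15, pandas 2.3.3 and numpy 2.4.6 computed log2 ratios with a pseudocount of 1. A call needed a ratio of 4-fold and 1 FPKM in one of both libraries. Members at 5 FPKM in any line, called members and drug exporters are given with all 4 values, except a few that are not reported here and are left out of the figures. They stay in all counts and sums. A few lower members of interest (ABCA8 to ABCA10, ABCA13, ABCB4, ABCD2 and ABCG4), the genes beside the chromosome 17 cluster, NR1H3 and NR1H2 were named after their values were seen. Gene and transcript types came from GENCODE 29, which held 507 of 508 member transcripts. RefSeq promoter windows matched 35 member names. Fragments per library were read from the step between low values of FPKM times transcript length, with a tolerance of 1%. Calls and depth estimates were tested on simulated data. Counting error is small beside 4-fold at 1 FPKM, and the number of libraries limits the precision. Alternatives covered pseudocounts, scaling, filters, limits, the transcript table and, added after the data were seen, protein-coding transcripts alone.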

Additional observations from a re-analysis of the deposited data

Results flagged for a closer look

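ABCG1 differed between the cancer lines in its direction against HCEC-1CT, with log2 ratios of -1.61 for HCT116, 1.48 for DLD-1 and 1.67 for SW620. CFTR did so with log2 ratios of -1.33 for HCT116, 3.78 for DLD-1 and -1.35 for SW620. With 1 library per line these differences were not tested.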

How the results depend on the processing

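No paired analysis was possible because each line has 1 library. A pseudocount of 0.1 raised the calls to 14, 13 and 11 for HCT116, DLD-1 and SW620, with 8 in all 3. A pseudocount of 5 left 2 in HCT116, 2 in SW620 and 1, ABCA1, in all 3. Beside ABCA1, ABCA7 stayed called in HCT116 and DLD-1, and ABCC4 in SW620. ABCA6 then missed the limit in each line (-1.75 to -1.74). A 2-fold limit gave 18, 19, 17 and 11. Median-ratio scaling gave 5 calls in DLD-1. On the TPM scale the calls were 2 higher and 5 lower for HCT116, 1 and 3 for DLD-1 and 0 and 3 for SW620, and by the nuclear protein-coding total 2 and 4, 1 and 3, and 1 and 3. The members' median turned negative under median-ratio scaling (-0.02, -0.22 and -0.07). Over protein-coding transcripts alone ABCC4 reversed to 1.51 in HCT116 and 1.16 in SW620, where the nonsense-mediated decay transcripts of HCEC-1CT are left out by construction, and 0 members differed in their most abundant transcript in each line. Of 93 ratios of named members, 78 kept their side of the limit at a pseudocount of 0.1 and 86 at 5, and all 93 did so when transcripts were summed. With 1 cancer line left out, the calls shared by the other pair were 3 to 4. Levels under 1 FPKM rest on few fragments.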
